A study of Arabidopsis thaliana with 12 samples.

Results

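Leaves of the Arabidopsis thaliana mutant pgr5 were compared with wild-type leaves after 90 min of strong light, over all genes of the deposited read tables. The comparison was between 6 of the 12 libraries of the study, the 3 labelled pgr5 and the 3 labelled wild type. The fit took its spread from all 12. The other 6 libraries came from sapx tapx, which lacks the ascorbate peroxidases of the chloroplast stroma and thylakoid, and from the triple mutant sapx tapx pgr5. All libraries were made from fully expanded rosette leaves of 18-day-old plants raised at 40 to 60 µmol photons m-2 s-1, a dim light, and exposed for 90 min to 1500 µmol photons m-2 s-1. The labels name neither the allele nor the accession of the pgr5 line and list no complemented line. Every library was taken after the strong light, so each value below compares genotypes in that state.

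PGR5 is a small thylakoid protein that, with its partner PGRL1, is needed for the main route of cyclic electron flow, in which electrons from photosystem I return to the plastoquinone pool while protons are moved into the thylakoid lumen. The resulting acidification slows the cytochrome b6f complex and switches on thermal dissipation, and plants without PGR5 are known for damage to photosystem I in strong or fluctuating light. Chaperones, which take up a large share of the text below, refold or hold damaged proteins. Their genes are switched on by heat shock factors, transcription factors that bind repeated GAA and TTC units in promoters.

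Wild-type libraries held 5534211 to 6113607 exon reads and pgr5 libraries 5886248 to 6628580. Levels are given as CPM, reads of a gene per 1000000 exon reads after TMM scaling, always in the order replicate 1, 2, 3. The share of gene reads in introns was 1.16% to 1.54% in wild type and 1.39% to 1.57% in pgr5, and the share of exon reads across exon junctions was 43.5% to 43.9% and 43.5% to 43.8%. PGR5 itself (AT2G05620, chromosome 2, 2081009 to 2081858) was read at 244, 241 and 244 CPM in the wild-type libraries and 247, 245 and 231 CPM in pgr5. Its log2 fold change was -0.01 ± 0.12 (edgeR adjusted p = 0.97), so its RNA does not check the label. Of the leaf markers, RBCS1A, encoding a Rubisco small subunit, stood at 20774, 16098 and 18638 CPM in the wild-type libraries and 21017, 19630 and 20772 CPM in pgr5. Root markers were almost absent, with 2 of 7 passing the filter on low counts.

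Wild-type replicate 2 stood apart from replicates 1 and 3 in genes of rapid stress and of jasmonate. Of the 28 jasmonate genes listed, 26 passed the filter on low counts. Over these the mean of log2(CPM + 1) was 4.19, 6.76 and 4.05 in wild type and 4.47, 4.26 and 4.0 in pgr5. Over the 20 of 21 rapid stress and touch genes that passed this filter, the mean was 2.55, 5.53 and 2.60 against 4.40, 4.77 and 3.84. The same library was the lowest of wild type in HSFA2, MBF1C and the 12 large chaperones of the cytosol. The mean of these chaperones was 6.67, 6.21 and 6.89 in wild type and 7.49, 7.43 and 7.68 in pgr5. Without this library 6 of the 12 were called higher, as with it, and their median log2 fold change was 0.43 in place of 0.55. Counts of list members called without this library are given below for most lists in which they moved.

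Of 16350 genes tested, 638 passed the quasi-likelihood test of edgeR at an adjusted p under 0.05, which is 3.90% of them, and only these are termed called. Higher in pgr5 were 399 genes (2.44%) and lower 239 (1.46%). Higher genes were 62.5% of the calls here and 51.7% of 605 calls by limma on log2(RPKM + 0.5). Most differences were modest, with a median fold change of 1.65 among the higher and 1.7 among the lower genes, and 113 and 73 of them reached 2-fold. The median log2 fold change of all genes tested was -0.001. A larger set, 4221 genes or 25.8%, had wild-type and pgr5 values that did not overlap. An unadjusted p under 0.05 in edgeR was reached by 3178 genes, or 19.4%. The count of calls fell when any library of the groups other than wild type replicate 2 was left out. It was 287 with wild type replicate 1 left out, 300 with wild type replicate 3 left out, 350 without pgr5 replicate 1, 210 without pgr5 replicate 2 and 247 without pgr5 replicate 3, while 660 were called without wild type replicate 2. A fit that treated same-numbered libraries as pairs called 1882 of the 16350 genes, 1119 higher and 763 lower, among them all 638. List counts from that fit stand beside these larger numbers. Log2 fold changes (pgr5 over wild type) are given ± SE from the fit over all 12 libraries, and every adjusted p is from that test unless another is named.

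Genes of the heat shock response led the higher genes. They made up 12 of the 15 largest called rises among genes of at least 5 CPM whose groups did not overlap. HSFA2 (AT2G26150, chromosome 2, 11135682 to 11137396), the heat shock factor that prolongs chaperone expression under repeated or lasting stress, was read at 5.17, 1.56 and 6.61 CPM in the wild-type libraries and 55.4, 60.3 and 61.4 CPM in pgr5. The groups were far apart, and the difference was a log2 fold change of 3.71 ± 0.31 (edgeR adjusted p = 8.21e-05). Of the 25 heat shock factors and associated regulators listed, 18 passed the filter on low counts. In that group 4 were called higher and 0 lower, with a median log2 fold change of 0.47, which was 0.86 without wild type replicate 2.

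Upstream of several of these genes the 250 bases before the annotated gene start held a heat shock element, searched as 3 adjoining units of 5 bases in which NGAAN alternates with the unit NTTCN, starting with either, which covers both strands, with overlapping matches counted separately. Such an element stood before 85 of 16349 genes tested (0.520%), 14 of the 399 called higher (3.51%) and 0 of the 239 called lower. Among members of the small heat shock protein, cytosolic chaperone, co-chaperone and factor lists it stood before 8 of 27 called higher (29.6%) and 5 of 34 not called (14.7%). A match describes the letters in this window and nothing about binding. The sequences of 5 members that the results below turn on are printed from the RefSeq TAIR10.1 genome with the element in capitals, 5′ to 3′ on the strand of the gene. They are those of HSFA2 (chr2:11135432-11135681, + strand), of the small heat shock protein gene HSP17.4 (chr3:16984842-16985091, - strand), of the chaperone genes HSP90.1 (chr5:21352149-21352398, + strand) and HSP70 (chr3:3993793-3994042, - strand), and of AT1G71000, which encodes a DnaJ-domain chaperone (chr1:26770112-26770361, - strand).
HSFA2: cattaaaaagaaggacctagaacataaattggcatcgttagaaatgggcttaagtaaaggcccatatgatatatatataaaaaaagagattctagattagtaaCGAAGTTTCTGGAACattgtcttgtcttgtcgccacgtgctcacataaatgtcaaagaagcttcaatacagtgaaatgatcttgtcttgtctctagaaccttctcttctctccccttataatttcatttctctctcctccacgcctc
HSP17.4: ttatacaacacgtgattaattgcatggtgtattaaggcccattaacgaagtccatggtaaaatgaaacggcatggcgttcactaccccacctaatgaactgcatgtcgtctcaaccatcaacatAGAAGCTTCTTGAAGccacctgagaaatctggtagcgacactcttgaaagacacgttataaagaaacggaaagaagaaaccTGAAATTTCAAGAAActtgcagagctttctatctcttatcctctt
HSP90.1: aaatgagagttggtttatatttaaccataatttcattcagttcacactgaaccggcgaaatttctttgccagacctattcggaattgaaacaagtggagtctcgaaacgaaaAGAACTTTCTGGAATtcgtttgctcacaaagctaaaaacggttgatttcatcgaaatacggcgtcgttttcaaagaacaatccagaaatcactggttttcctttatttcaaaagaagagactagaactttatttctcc
HSP70: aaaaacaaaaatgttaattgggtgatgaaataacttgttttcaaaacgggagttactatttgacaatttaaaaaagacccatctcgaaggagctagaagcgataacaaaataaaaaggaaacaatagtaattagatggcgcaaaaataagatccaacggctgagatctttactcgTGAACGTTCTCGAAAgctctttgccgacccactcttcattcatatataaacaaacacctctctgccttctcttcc
AT1G71000: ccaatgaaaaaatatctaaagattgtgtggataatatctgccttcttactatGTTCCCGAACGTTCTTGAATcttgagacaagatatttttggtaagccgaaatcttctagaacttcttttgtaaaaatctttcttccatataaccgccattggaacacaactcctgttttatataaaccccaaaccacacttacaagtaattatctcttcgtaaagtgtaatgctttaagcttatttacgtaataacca
HSP17.4 held 2 separate matches and AT1G71000 held 2 that overlap, and the other 3 genes held 1 each. The element was not found in this window before HSP101 or FES1A, which also rose.

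The other regulators that rose did so by less than HSFA2. MBF1C, a transcriptional coactivator needed for heat tolerance, was read at 11.5, 4.15 and 12.8 CPM in the wild-type libraries and 31.9, 39.5 and 34.6 CPM in pgr5. DREB2A, which activates HSFA3 and drought genes, stood at 4.50, 2.42 and 4.72 CPM in the wild-type libraries and 14.3, 13.2 and 13.3 CPM in pgr5. In both genes each pgr5 library lay above each wild-type library, with a log2 fold change of 1.89 ± 0.36 (edgeR adjusted p = 0.0143) for MBF1C and a log2 fold change of 1.79 ± 0.34 (edgeR adjusted p = 0.014) for DREB2A. HSFA7A rose by 2.18 ± 0.50 (edgeR adjusted p = 0.033) from levels under 1 CPM. Without pgr5 replicate 2, HSFA2 alone of the list was called. The adjusted p of MBF1C was then 0.0632 and that of DREB2A 0.0511, while HSFA7A lost its call in 6 of the 12 fits that left out 1 library, with a p of up to 0.105 without pgr5 replicate 3. The class A1 factors, which in Arabidopsis start the response, were not called. HSFA1A had a log2 fold change of -0.48 ± 0.28, HSFA1B of 0.28 ± 0.21, HSFA1D of 0.08 ± 0.25 and HSFA1E of 0.48 ± 0.28, with adjusted p of 0.385, 0.513, 0.897 and 0.398 in edgeR. HSFB1, a class B factor known as a repressor of the response, stood at 10.8, 11.8 and 13.5 CPM in the wild-type libraries and 19.5, 14.4 and 16.4 CPM in pgr5. Its groups did not overlap, but it did not pass the test (edgeR adjusted p = 0.261). Neither did its relative HSFB2B, at 0.42 ± 0.18, nor HSFA3, a target of DREB2A, at 0.61 ± 0.43 (edgeR adjusted p = 0.225 and 0.482). HSFA6B, HSFA9 and HSFB3 had no read in the 6 libraries.

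Small heat shock proteins bind unfolding proteins and hold them for refolding. Of 18 genes listed, 15 were tested, 10 were called higher and 0 lower, with a median log2 fold change of 2.78. HSP17.6II (AT5G12020, chromosome 5, 3882237 to 3882938), of the cytosol, was read at 2.33, 3.12 and 4.72 CPM in the wild-type libraries and 32.6, 42.9 and 63.5 CPM in pgr5. Its groups did not overlap, and it had a log2 fold change of 3.76 ± 0.34 (edgeR adjusted p = 0.000133). HSP17.4 stood at 0.333, 0 and 0.945 CPM in the wild-type libraries and 8.33, 15.3 and 23.4 CPM in pgr5, a log2 fold change of 5.09 ± 0.63 (edgeR adjusted p = 0.0014), although an overlapping gene on the other strand could not be told apart with this unstranded kit. HSP17.6A rested on 3 reads over the wild-type libraries and 282 over the pgr5 libraries, a ratio of CPM of 91 (95% counting interval 30.7 to 442). AT1G53540 had 2 and 108 reads, a ratio of 52.1 (95% counting interval 14.1 to 435).

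RefSeq gives 5 of the remaining small heat shock genes that rose only as HSP20-like chaperones. AT1G07400 stood at 4.83, 2.08 and 4.88 CPM in the wild-type libraries and 34.7, 38.1 and 50.9 CPM in pgr5. AT2G29500 stood at 3.17, 3.29 and 2.2 CPM in the wild-type libraries and 20.2, 31.0 and 41.4 CPM in pgr5. AT5G51440 stood at 2.33, 1.90 and 4.25 CPM in the wild-type libraries and 13.9, 17.2 and 27.4 CPM in pgr5. Their log2 fold changes were 3.38 ± 0.26, 3.42 ± 0.31 and 2.77 ± 0.35 (edgeR adjusted p = 5.01e-05, 0.00014 and 0.00159), and no pgr5 library of these genes was as low as any wild-type library. AT1G59860 had a lower level and a log2 fold change of 2.1 ± 0.35 (edgeR adjusted p = 0.00829). AT1G54050 had the smallest called difference of the list, 0.84 ± 0.17, from 16.3, 14.0 and 14.8 CPM to 19.9, 26.6 and 34.5 CPM (edgeR adjusted p = 0.0219). It lost its call in 5 of the 12 fits that left out 1 library, with a p of up to 0.0793 without pgr5 replicate 3. HSP23.6, of mitochondria, rose by 3.63 ± 0.69 (edgeR adjusted p = 0.0146), and only the fit without wild type replicate 3 put its p above the threshold, at 0.0542. The same single fit took AT1G53540 to 0.0522.

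The rise did not extend to every small heat shock gene. HSP18.2 stood at 2.17, 1.04 and 2.99 CPM in the wild-type libraries and 2.89, 2.39 and 1.76 CPM in pgr5, a difference of 0.17 ± 0.37 that did not pass the test (edgeR adjusted p = 0.854). HSP21, whose protein sits in chloroplasts, and HSP22, of the endoplasmic reticulum, had no read in any of the 6 libraries. AT5G37670 rested on 7 and 52 reads and was not called, with a difference of 2.78 ± 0.77 (edgeR adjusted p = 0.0695).

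**Figure D1:**
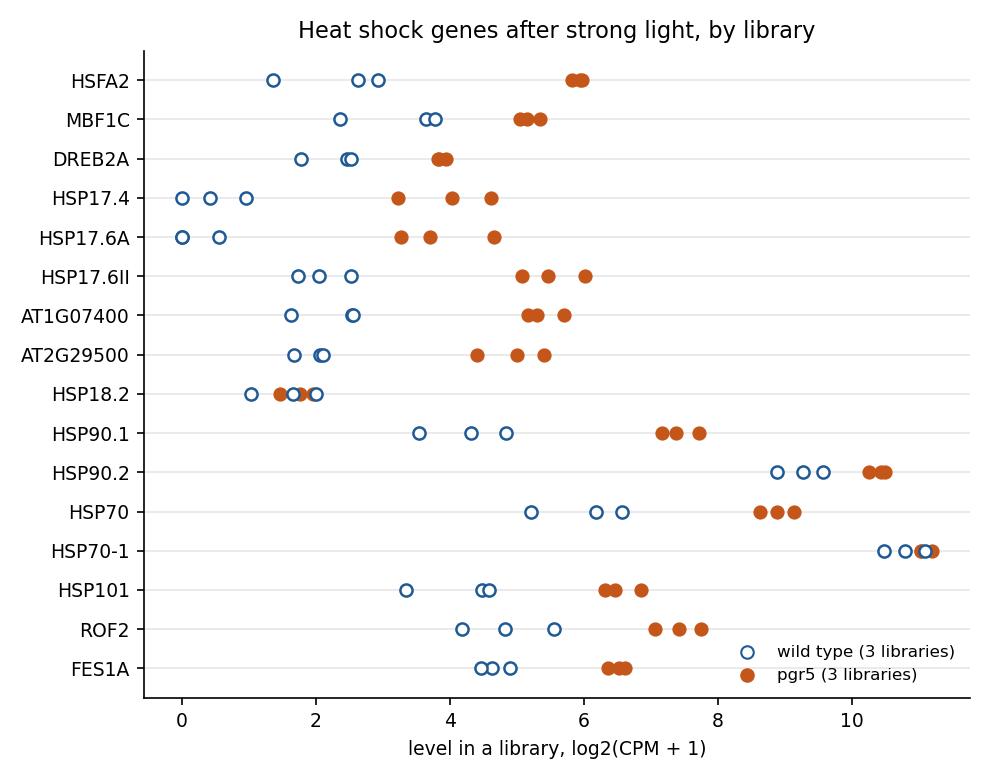
Level of 16 heat shock genes in each wild-type library (open circles) and each pgr5 library (filled circles), as log2(CPM + 1) on the horizontal axis, with genes in rows. The rows of HSFA2, HSP17.6II and HSP90.1 show the pgr5 libraries to the right of all wild-type libraries, and those of HSP18.2 and HSP70-1 show mixed circles.

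The large ATP-driven chaperones of the cytosol went the same way. Of 12 genes, 6 were called higher and 0 lower, and the median log2 fold change was 0.55. HSP90.1 (AT5G52640, chromosome 5, 21352399 to 21355361), the heat-inducible member of the cytosolic HSP90 family, was read at 18.8, 10.6 and 27.4 CPM in the wild-type libraries and 143, 165 and 208 CPM in pgr5. HSP70 (AT3G12580, chromosome 3, 3991261 to 3993792), the heat-inducible cytosolic member of its family, stood at 71.7, 36 and 93.2 CPM in the wild-type libraries and 394, 467 and 562 CPM in pgr5. HSP101, the disaggregase that pulls proteins out of aggregates, stood at 21.3, 9.17 and 23.0 CPM in the wild-type libraries and 87.3, 78.5 and 115 CPM in pgr5. In all 3 genes the lowest pgr5 library was above 3 times the highest wild-type library, with log2 fold changes of 3.18 ± 0.28, 2.82 ± 0.30 and 2.39 ± 0.28 (edgeR adjusted p = 0.000114, 0.000481 and 0.000893). Reads of HSP101 can include those of an overlapping gene on the opposite strand.

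Family members known as constitutive moved less. HSP90.2 stood at 617, 470.3 and 753 CPM in the wild-type libraries and 1223, 1379 and 1431 CPM in pgr5, a log2 fold change of 1.13 ± 0.15 (edgeR adjusted p = 0.00203). HSP90.3 rose by 0.77 ± 0.15 (edgeR adjusted p = 0.0163), and its p reached 0.0734 without pgr5 replicate 2. These genes are near copies of each other, and 97% and 96% of their exon reads were unique, so how reads were split between them is uncertain. AT3G09440, an HSP70 family gene, rose by 0.94 ± 0.18 (edgeR adjusted p = 0.0139, and 0.066 without pgr5 replicate 3). HSP70-1 was read at 1759, 1426 and 2173 CPM in the wild-type libraries and 2086, 2081 and 2340.3 CPM in pgr5 and was not called (edgeR adjusted p = 0.298). The other 5 members of the list were not called either.

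Co-chaperones deliver clients to HSP70 and HSP90 or adjust their ATP cycle. Of 17 tested, 7 were called higher and 1 lower, with a median of 0.41. AT1G71000 was nearly silent in wild type, at 0.167, 0.173 and 1.1 CPM in the wild-type libraries and 10.2, 8.23 and 7.06 CPM in pgr5, and had a log2 fold change of 4.04 ± 0.43 (edgeR adjusted p = 0.000481). HOP3, which links HSP70 to HSP90, was read at 8.50, 6.92 and 11.7 CPM in the wild-type libraries and 41.8, 45.9 and 72.0 CPM in pgr5. ROF2, an FKBP-type immunophilin and partner of HSP90, was read at 27.3, 17.1 and 45.7 CPM in the wild-type libraries and 132, 169 and 214 CPM in pgr5. FES1A, an HSP70 partner needed for heat tolerance, was read at 23.7, 20.9 and 28.7 CPM in the wild-type libraries and 80.7, 96.3 and 90.8 CPM in pgr5. The groups of these 4 genes did not overlap, and HOP3, ROF2 and FES1A had log2 fold changes of 2.55 ± 0.27, 2.51 ± 0.29 and 1.87 ± 0.13 (edgeR adjusted p = 0.000481, 0.000926 and 3.37e-05). HSA32, which prolongs acquired heat tolerance, rose by 1.60 ± 0.25, SGT1A, an HSP90 partner in immune receptor assembly, by 0.91 ± 0.13, and ROF1, the close relative of ROF2, by 0.60 ± 0.11 (edgeR adjusted p = 0.00576, 0.00441 and 0.0153). ROF1 lost its call in 3 of the 12 fits that left out 1 library, with a p of up to 0.0781 without pgr5 replicate 3. BAG7, a co-chaperone of the endoplasmic reticulum, went the other way, from 44.5, 58.3 and 45.5 CPM to 33.3, 35 and 35.9 CPM, a log2 fold change of -0.51 ± 0.12 (edgeR adjusted p = 0.0357). Its call was lost in 5 of the 12 fits, with a p of up to 0.116 without pgr5 replicate 1.

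In chloroplasts and mitochondria, 4 of 18 chaperone genes were called higher and 0 lower, with a median of 0.37. Of all genes tested, 2.44% were called higher. Cpn60beta2, a subunit of the chaperonin that folds Rubisco, was read at 409.6, 431 and 449 CPM in the wild-type libraries and 604, 774 and 825 CPM in pgr5, a log2 fold change of 0.77 ± 0.14 (edgeR adjusted p = 0.01). CPN60A, the alpha subunit of that chaperonin, rose by 0.49 ± 0.12, cpHSC70-2, a stromal HSP70, by 0.54 ± 0.13, and CLPB4, the mitochondrial disaggregase, by 1.02 ± 0.23 (edgeR adjusted p = 0.0364, 0.0406 and 0.0318). Only Cpn60beta2 kept its call in all 12 fits that left out 1 library. The list had 1 call without wild type replicate 1, without pgr5 replicate 2 or without pgr5 replicate 3, 2 without sapx tapx replicate 1 or wild type replicate 3, and 7 without triple mutant replicate 2. With same-numbered libraries as pairs it had 12.

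Chaperones of the endoplasmic reticulum went in the opposite direction to those of the cytosol. Of 21 genes tested, 5 were called lower and 0 higher, and the median log2 fold change was -0.37. BIP1 (AT5G28540, chromosome 5, 10540460 to 10543375), the HSP70 of the endoplasmic reticulum lumen, stood at 239, 172 and 279 CPM in the wild-type libraries and 131, 129.5 and 164 CPM in pgr5. CNX1 (calnexin), a lectin chaperone of glycoproteins, stood at 166, 145 and 212 CPM in the wild-type libraries and 93.3, 105 and 129 CPM in pgr5. CRT1 (calreticulin), its soluble counterpart, stood at 103, 94.5 and 121 CPM in the wild-type libraries and 63.7, 71.6 and 83.1 CPM in pgr5. The groups of these 3 genes did not overlap, and the log2 fold changes were -0.70 ± 0.15, -0.67 ± 0.14 and -0.54 ± 0.12 (edgeR adjusted p = 0.0257, 0.0257 and 0.0249). BIP2, a near copy of BIP1, and the DnaJ partner ERDJ3B fell by 0.86 ± 0.21 and 0.50 ± 0.12 (edgeR adjusted p = 0.0465 and 0.0383), with groups that overlapped in BIP2. The list held no call when replicate 1 or 3 of wild type or replicate 1 or 2 of pgr5 was left out, and 3 calls without sapx tapx replicate 2 or triple mutant replicate 3. It held 11 lower calls with same-numbered libraries as pairs, and 0 in a fit of only the 6 wild-type and pgr5 libraries.

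**Figure D2:**
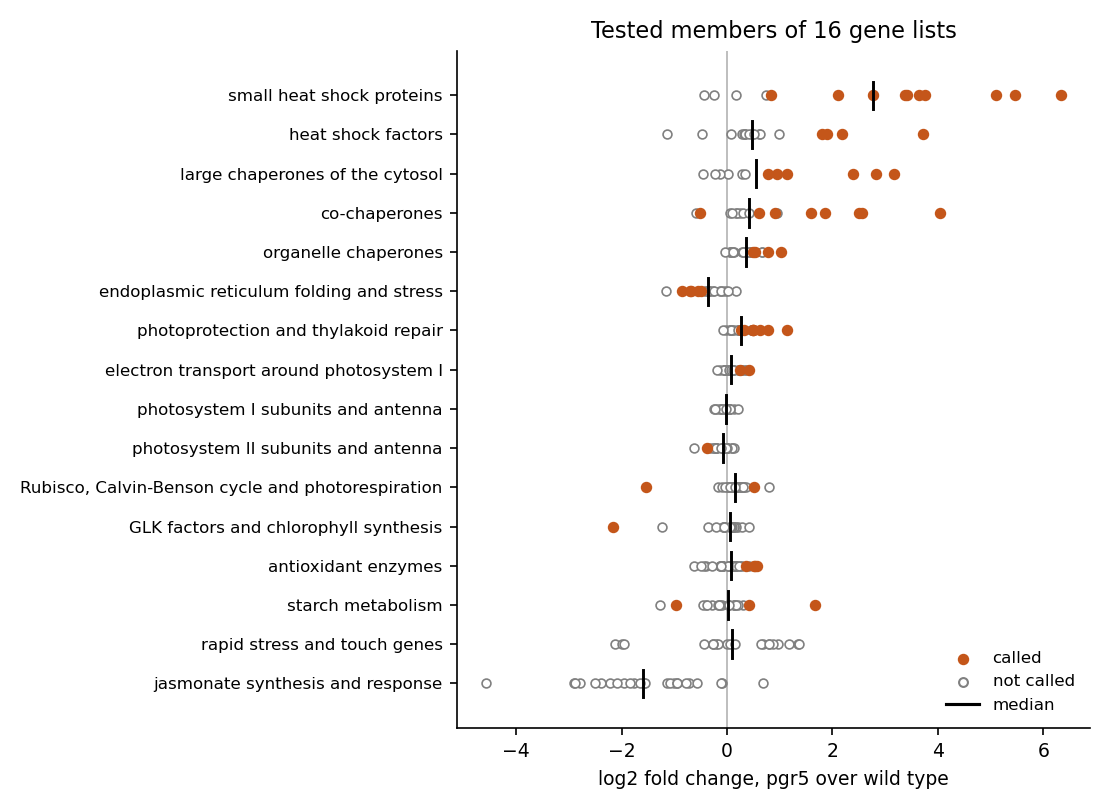
Log2 fold change (pgr5 over wild type) of every tested member of 16 gene lists, 1 row a list, with members called at an adjusted p under 0.05 as filled circles, the others as open circles, and a vertical bar at the list's median. The small heat shock proteins reach from -0.44 to 6.33, while the photosystem I subunits stay between -0.25 and 0.21.

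Genes of photoprotection and of thylakoid repair were higher by small amounts. Of 22 tested, 8 were called higher and 0 lower, with a median of 0.26, beside 2.44% of all genes called higher. ELIP2 (AT4G14690, chromosome 4, 8418283 to 8419263), an early light-induced protein that binds pigments released in strong light, was read at 225, 214 and 282 CPM in the wild-type libraries and 565, 459 and 565 CPM in pgr5, a log2 fold change of 1.14 ± 0.13 (edgeR adjusted p = 0.000871). SEP2, a related stress-enhanced protein, stood at 68.9, 53.0 and 80.0 CPM in the wild-type libraries and 121, 108 and 119 CPM in pgr5, a log2 fold change of 0.78 ± 0.15 (edgeR adjusted p = 0.0155). Its reads can include those of an overlapping gene on the opposite strand. ELIP1 did not pass the test, at 0.45 ± 0.16 (edgeR adjusted p = 0.143), nor did NPQ4, the PsbS sensor of lumen acidity, at 0.13 ± 0.07 (edgeR adjusted p = 0.369).

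Both enzymes of the xanthophyll cycle, which makes zeaxanthin for thermal dissipation and turns it back, were among the calls. ABA1, the zeaxanthin epoxidase, was read at 737, 635 and 684 CPM in the wild-type libraries and 987, 939 and 950.3 CPM in pgr5, a log2 fold change of 0.48 ± 0.07 (edgeR adjusted p = 0.00441). NPQ1, the violaxanthin de-epoxidase, rose by 0.50 ± 0.13 (edgeR adjusted p = 0.0499). FTSH8, VAR1 and VAR2, subunits of the protease that removes damaged D1 protein from photosystem II, rose by 0.62 ± 0.14, 0.32 ± 0.07 and 0.27 ± 0.06 (edgeR adjusted p = 0.031, 0.027 and 0.0427). STN8, the kinase that phosphorylates photosystem II core proteins, rose by 0.50 ± 0.09 (edgeR adjusted p = 0.0123). ELIP2 and ABA1 kept their calls in all 12 fits that left out 1 library. The list had 2 calls without pgr5 replicate 3, 3 without pgr5 replicate 1 or 2 or wild type replicate 1, and 5 without replicate 2 or 3 of wild type, sapx tapx replicate 3 or triple mutant replicate 1. It had 14 with same-numbered libraries as pairs.

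Genes of the pathway that pgr5 interrupts and of its photosystem showed small differences. Of 23 genes listed for electron transport around photosystem I, 2 were called higher and 0 lower, with a median of 0.07. Of all genes tested, 2.44% were called higher. PGRL1A, encoding the partner of PGR5, stood at 652, 631 and 696 CPM in the wild-type libraries and 704, 756 and 691 CPM in pgr5, a difference of 0.12 ± 0.08 (edgeR adjusted p = 0.461). FD2, the main leaf ferredoxin, rose by 0.25 ± 0.06, and KEA3, a thylakoid proton-potassium exchanger, by 0.41 ± 0.10 (edgeR adjusted p = 0.0397 and 0.0459). These calls are fragile, since FD2 lost its call in 9 and KEA3 in 11 of the 12 fits that left out 1 library, up to 0.131 without pgr5 replicate 1 and 0.175 without pgr5 replicate 3, and with same-numbered libraries as pairs the list had 7 higher calls. Among 16 photosystem I subunits and antenna proteins no gene was called by edgeR. An unadjusted p under 0.05 was found in 2 of them, all lower, beside 19.4% of all genes tested. LHCA4 and LHCA1, antenna proteins of photosystem I, had differences of -0.22 ± 0.12 and 0.06 ± 0.10 (edgeR adjusted p = 0.351 and 0.813). Among 24 photosystem II genes 1 fell, the antenna gene LHCB2.2, by 0.38 ± 0.09 (edgeR adjusted p = 0.0329), and its p reached 0.121 without pgr5 replicate 1. With same-numbered libraries as pairs 7 photosystem II and 2 photosystem I genes were called lower, and none of either list higher.

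The chloroplast regulator GLK1 and a set of metabolic genes were lower in pgr5 and kept their calls in all 12 fits that left out 1 library. GLK1 (AT2G20570, chromosome 2, 8855358 to 8857756), a transcription factor that activates genes of antenna proteins and chlorophyll synthesis, was read at 170.1, 119.8 and 210.4 CPM in the wild-type libraries and 37.6, 30.8 and 42.8 CPM in pgr5, a log2 fold change of -2.17 ± 0.36 (edgeR adjusted p = 0.00755). GLK2, its partner in this role, stood at 92.2, 78.6 and 94.7 CPM in the wild-type libraries and 69.3, 68.1 and 68.0 CPM in pgr5 and was not called (edgeR adjusted p = 0.196). Of 20 GLK and chlorophyll synthesis genes GLK1 was the only one called, with a list median of 0.06. With same-numbered libraries as pairs the list held 2 higher and 3 lower calls. Without wild type replicate 2 another gene of the list was called higher, and without sapx tapx replicate 3 or triple mutant replicate 3 another was called lower.

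RBCS2B (AT5G38420, chromosome 5, 15380945 to 15382035), encoding one of the Rubisco small subunits, stood at 5340.1, 3902 and 4795 CPM in the wild-type libraries and 1770.0, 1355 and 1736 CPM in pgr5, a log2 fold change of -1.53 ± 0.14 (edgeR adjusted p = 0.000133). The groups did not overlap. Its family members RBCS1A, RBCS1B and RBCS3B had differences of 0.15 ± 0.09, -0.18 ± 0.10 and 0.14 ± 0.08 and were not called (edgeR adjusted p = 0.422, 0.339 and 0.356). Coding sequences of this family are nearly alike, and 99% of RBCS2B reads were unique in the deposited tables. CP12-2, a small protein that binds Calvin-Benson enzymes in the dark, rose from 264, 262 and 263 CPM to 348, 375 and 401 CPM, a log2 fold change of 0.51 ± 0.08 (edgeR adjusted p = 0.00504). The 30 genes tested of Rubisco, the Calvin-Benson cycle and photorespiration held no further call, with a median of 0.15. With same-numbered libraries as pairs it held 15 higher and 1 lower calls, and without wild type replicate 2 it held 2 higher calls.

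In starch metabolism the calls pointed both ways, beside 2.44% of all genes called higher and 1.46% called lower. GBSS1 (AT1G32900, chromosome 1, 11920390 to 11923766), the starch synthase that makes amylose, was read at 638, 485 and 648 CPM in the wild-type libraries and 333, 277 and 298 CPM in pgr5, a log2 fold change of -0.96 ± 0.12 (edgeR adjusted p = 0.0018). BAM9, a beta-amylase-like protein without catalytic activity, stood at 6.67, 16.8 and 10.6 CPM in the wild-type libraries and 27.0, 45.2 and 35.1 CPM in pgr5, a log2 fold change of 1.66 ± 0.29 (edgeR adjusted p = 0.0103). BAM1, an active beta-amylase, rose by 0.42 ± 0.09 (edgeR adjusted p = 0.0308). BAM9 lost its call only without pgr5 replicate 2 (edgeR adjusted p = 0.0501), and BAM1 in 5 of the 12 fits, up to 0.105 without pgr5 replicate 1. The other 18 of 21 starch genes were not called, and with same-numbered libraries as pairs the list had 4 higher and 5 lower calls. SUC2 (AT1G22710, chromosome 1, 8030641 to 8033117), the sucrose carrier that loads phloem, was read at 72.0, 83.1 and 87.9 CPM in the wild-type libraries and 200.01, 168 and 185 CPM in pgr5, a log2 fold change of 1.19 ± 0.11 (edgeR adjusted p = 0.000133), and kept its call in all 12 fits. None of the other 17 sugar transport and raffinose genes tested was called, while 2 were called lower with same-numbered libraries as pairs.

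Among antioxidant enzymes 4 of 35 were called higher and 0 lower, with a median of 0.08, beside 2.44% of all genes called higher. GPX7 and GPX1, chloroplast thiol peroxidases, rose by 0.57 ± 0.10 and 0.36 ± 0.07, CAT2, the leaf peroxisomal catalase, by 0.52 ± 0.11, and FSD1, an iron superoxide dismutase, by 0.51 ± 0.09 (edgeR adjusted p = 0.0128, 0.0136, 0.022 and 0.0139). CAT2 was read at 2886, 2710.3 and 3389.7 CPM in the wild-type libraries and 4229, 4129.7 and 4560.5 CPM in pgr5, and its groups did not overlap. With wild type replicate 1 or pgr5 replicate 1 or 3 left out, only 1 of these genes was called. The list had 5 higher and 3 lower calls with same-numbered libraries as pairs. APX1, the cytosolic ascorbate peroxidase, stood at 1470.1, 2320.0 and 2015 CPM in the wild-type libraries and 1955, 2078 and 2217 CPM in pgr5 and was not called (edgeR adjusted p = 0.783). APX2, known as a strong-light marker and target of HSFA2, had 7 reads over the wild-type and 5 over the pgr5 libraries and did not pass the filter. SAPX and TAPX, the genes disrupted in the other mutant, had differences of 0.17 ± 0.19 and 0.24 ± 0.08 (edgeR adjusted p = 0.662 and 0.139).

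The list of cold and abscisic acid response held 2 calls, both of CBF factors, which start cold acclimation. Of all genes tested, 2.44% were called higher. CBF3 was read at 13.2, 20.6 and 16.9 CPM in the wild-type libraries and 60.0, 44.9 and 42.7 CPM in pgr5, a log2 fold change of 1.54 ± 0.36 (edgeR adjusted p = 0.0359). CBF2 was read at 4.0, 26.8 and 6.46 CPM in the wild-type libraries and 56.6, 53.0 and 48.3 CPM in pgr5, with wild type replicate 2 at several times the other 2 wild-type libraries, a log2 fold change of 2.09 ± 0.52 (edgeR adjusted p = 0.0487). CBF3 lost its call in 6 and CBF2 in 9 of the 12 fits that left out 1 library, up to 0.125 without wild type replicate 1 and 0.141 without wild type replicate 3. With wild type replicate 2 left out, and also with same-numbered libraries as pairs, the list had 5 calls, all higher. The other 18 genes of this list tested were not called. COR413-PM1, a cold-regulated gene outside the list, was called higher, by 0.49 ± 0.10 (edgeR adjusted p = 0.0251). In the sapx tapx background the difference between the triple mutant and sapx tapx was -0.82 ± 0.36 for CBF3 and -0.75 ± 0.50 for CBF2, neither of them called (edgeR adjusted p = 0.207 and 0.441).

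Of 18 clock genes listed 3 were called higher and 0 lower, with a median of 0.23, beside 2.44% of all genes called higher. LNK1, a coactivator of morning factors, rose by 0.46 ± 0.11, ELF3, of the evening complex, by 0.75 ± 0.17, and RVE1, a morning factor of the CCA1 family, by 1.66 ± 0.41 (edgeR adjusted p = 0.0387, 0.0289 and 0.0465). Each lost its call in 5 to 10 of the 12 fits that left out 1 library, with p of up to 0.18 for RVE1 without pgr5 replicate 2. The other 15 clock genes tested, the core oscillator genes among them, were not called.

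Outside the lists, the genes with the largest called rises at 5 CPM or more were few. AT1G62510, in RefSeq a lipid-transfer and seed-storage type protein, was read at 27.0, 15.2 and 20.2 CPM in the wild-type libraries and 97.2, 112 and 105 CPM in pgr5, a log2 fold change of 2.33 ± 0.22 (edgeR adjusted p = 0.000196). EGY3, a chloroplast membrane protein related to the EGY proteases, stood at 3.17, 5.54 and 5.04 CPM in the wild-type libraries and 17, 26.9 and 28.2 CPM in pgr5, a log2 fold change of 2.39 ± 0.28 (edgeR adjusted p = 0.000896). AT1G14200, a RING/U-box protein, rose by 3.46 ± 0.64 (edgeR adjusted p = 0.0136), with a p of 0.0567 without wild type replicate 3. EGY3 has an overlapping gene on the opposite strand. Chosen after their values were seen, FBA5, a cytosolic aldolase, stood at 65.5, 192 and 62.5 CPM in the wild-type libraries and 375, 546 and 477 CPM in pgr5. NCED4, a carotenoid cleavage dioxygenase named in the same way, stood at 20.5, 49.2 and 26.1 CPM in the wild-type libraries and 99.9, 107 and 110.0 CPM in pgr5. The groups of both genes did not overlap, and their log2 fold changes were 2.13 ± 0.38 and 1.73 ± 0.25 (edgeR adjusted p = 0.0108 and 0.00412).

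In 4 genes there were reads in every wild-type library and none in pgr5. AT2G33850 (chromosome 2, 14321062 to 14322049), an E6-like protein in RefSeq, was read at 24.8, 24.4 and 25.4 CPM in wild type and at 0 in all 3 pgr5 libraries, 451 reads against none. Set against a floor of 3 reads over the pgr5 libraries, it was at least 156-fold lower, and it stood at 8.24, 16.5 and 11.2 CPM in sapx tapx and 0, 0.154 and 0 CPM in the triple mutant. ZIP7 (AT2G04032, chromosome 2, 1289832 to 1291383), a zinc transporter, had 161 reads in wild type, so it was at least 55.7-fold lower. ACA2 (AT2G28210, chromosome 2, 12029997 to 12032420), an alpha carbonic anhydrase, had 54 reads and was at least 18.7-fold lower. The adjusted p of these genes in edgeR were 3.37e-05, 0.000265 and 0.00755, and each kept its call in all 12 fits that left out 1 library. MYB86 (AT5G26660, chromosome 5, 9331573 to 9333174) had 33 reads in wild type, at least 11.4-fold more than pgr5, but did not pass the filter on low counts and was not tested. The first 3 lie on chromosome 2, the chromosome of PGR5. By the coordinates given, ZIP7 starts closest to PGR5, and ACA2 and AT2G33850 start much further along the chromosome. Whether position bears on these losses was not tested.

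Other genes fell steeply without vanishing. SAT32 (AT1G27760, chromosome 1, 9668584 to 9671616), an interferon-related developmental regulator family gene known for salt tolerance, was read at 155, 135 and 165 CPM in the wild-type libraries and 46.4, 42.6 and 44.6 CPM in pgr5, a log2 fold change of -1.77 ± 0.12 (edgeR adjusted p = 2.77e-05). SEC10 (AT5G12370, chromosome 5, 4002775 to 4008804), a subunit of the exocyst, which tethers secretory vesicles, stood at 54.5, 54.0 and 53.5 CPM in the wild-type libraries and 18.7, 17.1 and 18.1 CPM in pgr5, a log2 fold change of -1.59 ± 0.10 (edgeR adjusted p = 2.77e-05). Both had narrow groups that were far apart. PEL3, an acyltransferase needed for the cuticle, was read at 7.50, 14.4 and 12.9 CPM in the wild-type libraries and 1.02, 1.35 and 2.57 CPM in pgr5. PME61, a pectin methylesterase, stood at 14.3, 11.3 and 12.6 CPM in the wild-type libraries and 1.87, 2.54 and 3.69 CPM in pgr5. PGM, in RefSeq a phosphoglycerate mutase, stood at 12, 26.8 and 16.7 CPM in the wild-type libraries and 3.57, 5.38 and 2.73 CPM in pgr5. The groups of these genes did not overlap, which the rule that named them required. Their log2 fold changes were -2.80 ± 0.35, -2.22 ± 0.24 and -2.23 ± 0.32 (edgeR adjusted p = 0.00159, 0.000588 and 0.00412). Reads of PGM can include those of an overlapping gene on the opposite strand. CYP96A4 and AT2G16660, a major facilitator family transporter, fell by 1.56 ± 0.26 and 1.93 ± 0.32, and UGT78D1, a flavonol rhamnosyltransferase, fell by 0.85 ± 0.12 (edgeR adjusted p = 0.008, 0.008 and 0.00412). All of these genes kept their calls in every fit that left out 1 library.

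A further 5 genes among the lowest had calls that depended on single libraries. ACD6, an ankyrin protein that promotes defence, stood at 53.8, 20.1 and 22.5 CPM in the wild-type libraries and 6.29, 7.33 and 11.9 CPM in pgr5, a log2 fold change of -1.92 ± 0.40 (edgeR adjusted p = 0.0232). CLH1, a chlorophyllase induced by jasmonate, stood at 73.0, 219 and 67.6 CPM in the wild-type libraries and 33.3, 31.9 and 35 CPM in pgr5, with wild type replicate 2 above the other wild-type libraries, a log2 fold change of -1.84 ± 0.40 (edgeR adjusted p = 0.0257). AT5G52882, AT5G05365 and CRF3, a cytokinin response factor, fell by 1.55 ± 0.37, 1.84 ± 0.42 and 1.60 ± 0.40 (edgeR adjusted p = 0.0372, 0.0346 and 0.0482). The 5 genes lost their calls in 3 to 10 of the 12 fits that left out 1 library, with p of up to 0.106 for ACD6, 0.106 for CLH1, 0.132 for AT5G52882 and 0.177 for CRF3 without pgr5 replicate 2, and 0.133 for AT5G05365 without pgr5 replicate 3.

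**Figure D3:**
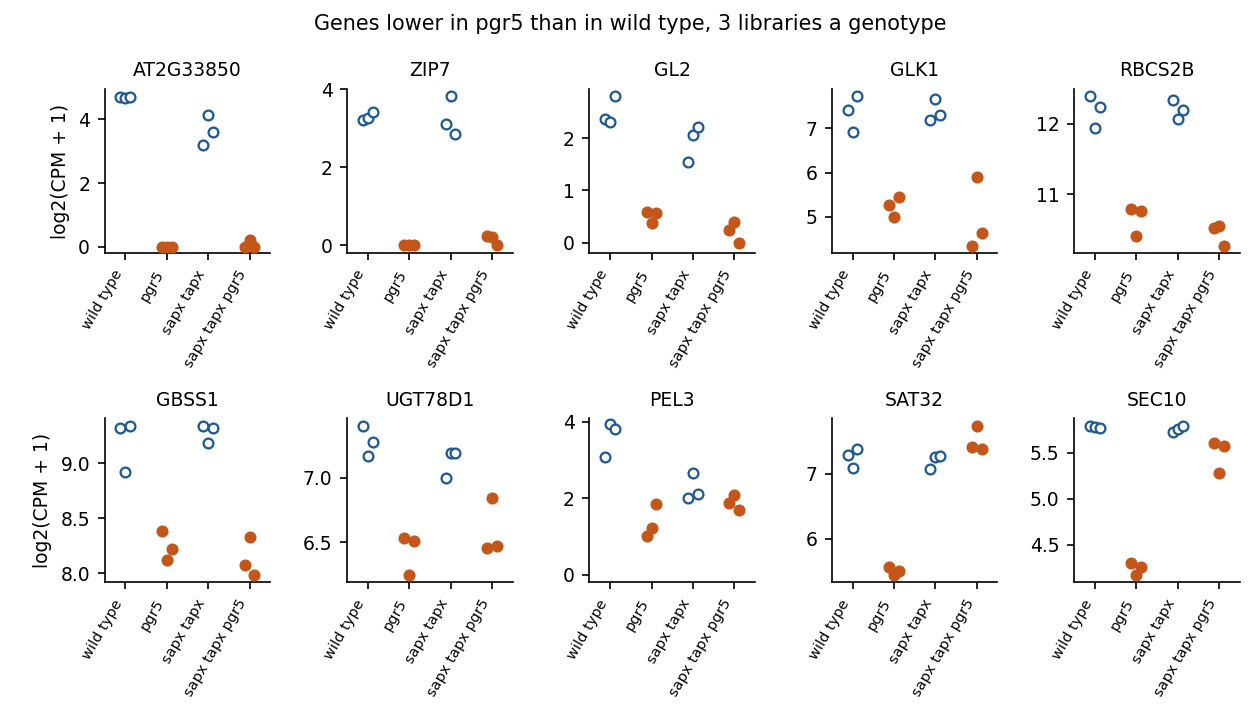
Level of 10 genes that were lower in pgr5, as log2(CPM + 1) on the vertical axis, in each library of the 4 genotypes (1 circle a library), with a scale of its own for each gene. AT2G33850 and ZIP7 lie at or close to 0 in all libraries that carry pgr5, whereas SAT32 and SEC10 are low in pgr5 but stand in the triple mutant close to sapx tapx.

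Calls among markers of leaf cell types came from 2 of 6 marker lists, trichome and phloem. In bulk leaf RNA, fewer cells of a type and less RNA per cell cannot be told apart. The trichome regulators GL2 and MYB23 fell by 3.41 ± 0.43 and 2.73 ± 0.51 (edgeR adjusted p = 0.00165 and 0.0136), and GL2 was read at 4.17, 3.98 and 5.98 CPM in the wild-type libraries and 0.510, 0.299 and 0.481 CPM in pgr5. GL2 has an overlapping gene on the opposite strand. MYB23 lost its call in 3 of the 12 fits, up to 0.0736 without pgr5 replicate 2. Of the 16 trichome markers 10 were tested, 2 were lower and 0 higher, beside 1.46% of all genes called lower. The summed level of all 16 was 58.7, 52.8 and 59.1 CPM in wild type and 50.3, 55.3 and 58.5 CPM in pgr5. GL1, the MYB factor that starts trichomes, had 1 read over the wild-type and 0 over the pgr5 libraries, so it was close to absent from both groups. The other 8 trichome markers tested were not called.

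Phloem markers rose in 3 of 8 genes, SUC2 as above, the phloem lectin PP2-A1 by 0.66 ± 0.10 and the companion cell proton pump AHA3 by 0.36 ± 0.08 (edgeR adjusted p = 0.00639 and 0.0348). AHA3 lost its call in 7 of the 12 fits, up to 0.125 without wild type replicate 1. The other 5 phloem markers were not called. Over the 8 markers the median log2 fold change was 0.02, with 4 above 0, and 2.44% of all genes were called higher. The summed level of the 8 markers was 651, 657 and 722 CPM in wild type and 953, 853 and 904 CPM in pgr5. No marker of guard cells (12 tested), epidermis (7), dividing cells (6) or roots (2) was called by edgeR. At an unadjusted p under 0.05 the guard cell list had 3 lower genes and the epidermis list 2 lower and 1 higher. The dividing cell list had 1 lower, and the root list none. Over all genes tested, 19.4% had such a p. In the guard cell list 2 genes were called lower without wild type replicate 2, and 2 with same-numbered libraries as pairs. With those pairs the epidermis list held 1 higher and 2 lower calls and the dividing cell list 1 lower, and 1 epidermis marker was called lower without sapx tapx replicate 1. Of all 16350 genes tested, the paired fit called 1119 higher and 763 lower.

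No gene of the rapid stress and touch list or the jasmonate list was called in the fit over all 12 libraries by edgeR, and the spread inside wild type was wide in both. With same-numbered libraries as pairs 3 rapid stress genes were called higher and 4 jasmonate genes lower. TCH4, a touch-induced cell wall enzyme, was read at 11.7, 595 and 16.9 CPM in the wild-type libraries and 174, 396 and 117 CPM in pgr5. ZAT12, a zinc finger factor of reactive oxygen responses, stood at 2.67, 22.3 and 4.72 CPM in the wild-type libraries and 18.52, 16.3 and 12.7 CPM in pgr5. In TCH4 wild type replicate 2 lay above every pgr5 library and the other 2 wild-type libraries lay below them. The difference in ZAT12 was 0.69 ± 0.57 (edgeR adjusted p = 0.562), and without wild type replicate 2 it was 2.07 (edgeR adjusted p = 0.0156). Without that library the rapid stress list had 5 genes called higher and a median of 2.06 in place of 0.10.

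In the jasmonate list the median was -1.58 with all libraries and -0.02 without wild type replicate 2. Of 26 genes tested, 8 had an unadjusted p under 0.05 in edgeR, all lower, beside 19.4% of all genes tested. Without wild type replicate 3, 1 gene was called lower. LOX2, the chloroplast lipoxygenase that starts jasmonate synthesis, was read at 524, 1207 and 389 CPM in the wild-type libraries and 489.9, 403 and 390.1 CPM in pgr5. AOS, allene oxide synthase of the same pathway, stood at 283, 811 and 217 CPM in the wild-type libraries and 238, 187 and 167 CPM in pgr5. Wild type replicate 2 stood far above the others in these genes, and wild type replicate 1 also lay above every pgr5 library. Neither gene passed the test (edgeR adjusted p = 0.328 and 0.175). What set this library apart was not tested.

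**Figure D4:**
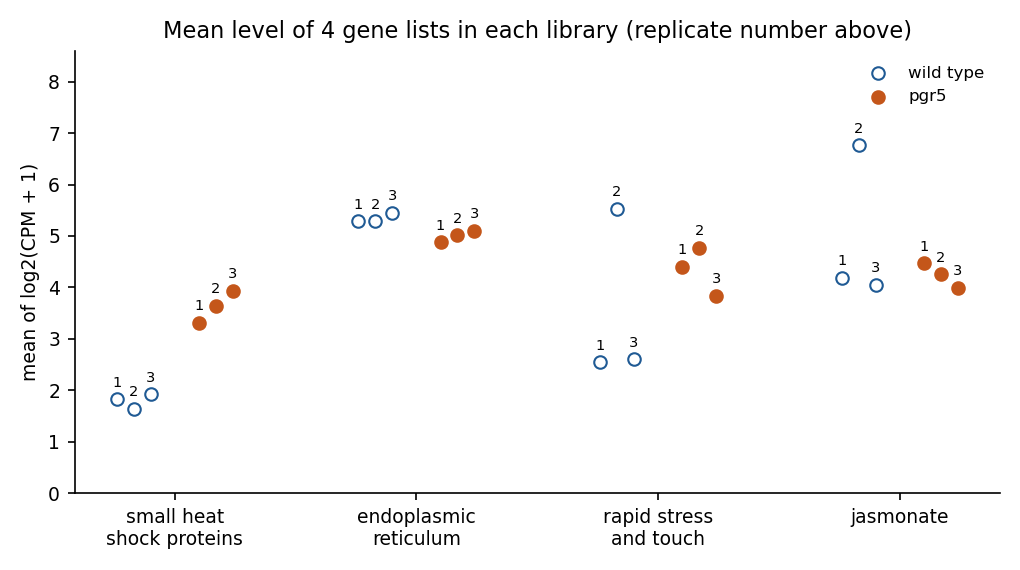
Mean of log2(CPM + 1) over the tested members of 4 gene lists (vertical axis) in each of the 3 wild-type (open circles) and 3 pgr5 (filled circles) libraries, labelled by replicate number. Wild type replicate 2 stands apart in the jasmonate list, at 6.76 against 4.05 to 4.19 in the other wild-type libraries, and in the rapid stress list, but not in the small heat shock or endoplasmic reticulum lists.

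Other lists held at most 2 calls each, beside 2.44% of all genes called higher and 1.46% called lower. FRO7, the chloroplast ferric reductase, rose by 1.07 ± 0.20, and OPT3, a carrier of iron in phloem, fell by 0.60 ± 0.15 (edgeR adjusted p = 0.0149 and 0.0458) among 18 iron and copper genes. FRO7 lost its call in 4 and OPT3 in 9 of the 12 fits, up to 0.068 and 0.15 without pgr5 replicate 2, while 2 genes of this list were called higher and 3 lower without wild type replicate 2, and 3 higher and 1 lower with same-numbered libraries as pairs. The 19 flavonoid genes held 1 lower call, UGT78D1 as above, with 1 higher call added without wild type replicate 2, and 7 higher and 2 lower calls with pairs. FER1, a chloroplast ferritin, was read at 232, 725 and 407 CPM in the wild-type libraries and 873, 730.1 and 772 CPM in pgr5 and was not called (edgeR adjusted p = 0.265). UGT74E2, an auxin glucosyltransferase used as a marker of mitochondrial stress, had 2 reads over the wild-type and 33 over the pgr5 libraries, a ratio of 15.9 (95% counting interval 4.07 to 137) and an edgeR adjusted p of 0.0162 that reached 0.0688 without pgr5 replicate 2. Without wild type replicate 2 the 12 mitochondrial stress genes held 2 higher calls. AOX1A, the alternative oxidase of the same response, was not called, at 0.22 ± 0.10 (edgeR adjusted p = 0.28). CPD, a brassinosteroid synthesis enzyme, rose by 0.61 ± 0.11, NAC078, a regulator listed with the proteasome, by 0.58 ± 0.11, and PAD4, a lipase-like defence regulator, by 0.75 ± 0.19 (edgeR adjusted p = 0.00941, 0.0149 and 0.0458). Their p reached 0.0511 without pgr5 replicate 2, 0.0745 without pgr5 replicate 3 and 0.164 without pgr5 replicate 3. Ribosome biogenesis (19 tested), SR splicing factors (19), nitrate and ammonium assimilation (15), lipid desaturation and triacylglycerol (14) and glucosinolates (23) held no call by edgeR in the fit over all 12 libraries. With same-numbered libraries as pairs glucosinolates held 5 lower calls, SR factors 3 higher and 1 lower, nitrate genes 1 lower, lipid genes 1 higher and 1 lower, and ribosome biogenesis none. The paired fit called 1119 of all 16350 genes tested higher and 763 lower. Leaving out 1 library gave at most 1 call in a direction in any of these 5 lists, among them 1 lower nitrate gene and 1 higher and 1 lower lipid gene without wild type replicate 2. At an unadjusted p under 0.05 these 5 lists held 1, 2, 0, 2 and 0 higher and 0, 3, 2, 2 and 6 lower genes, in that order. Over all genes tested, 19.4% passed that threshold.

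Lines with and without pgr5 were also compared in the other 6 libraries, as the triple mutant against sapx tapx. In neither comparison can the mutation be told apart from other loci that the lines may carry. There 7.91% of genes were called, 782 higher (4.78%) and 511 lower (3.13%). These libraries lie outside the contrast of pgr5 with wild type. They did enter its fit, which took 1 estimate of the spread from all 12 libraries, so the calls in both backgrounds are not independent. Of the 399 genes higher in pgr5, 241 (60.4%) were also higher there, which is 30.8% of those 782, and 2 were lower. Of the 239 lower genes, 113 (47.3%) were also lower there, 22.1% of those 511, and 1 was higher. The sign was the same in 96.7% of the higher and 91.2% of the lower genes. HSFA2 had a log2 fold change of 5.03 ± 0.32 in that background, HSP101 of 4.29 ± 0.30, ELIP2 of 1.3 ± 0.13, SUC2 of 1.16 ± 0.11, GLK1 of -2.31 ± 0.36, RBCS2B of -1.75 ± 0.14 and GBSS1 of -1.15 ± 0.12 (edgeR adjusted p = 2.44e-06, 5.33e-06, 0.000103, 4.62e-05, 0.00214, 1.43e-05 and 0.000165). For none of these 7 genes did the difference between backgrounds pass its own test, with interaction adjusted p in edgeR of 0.122 for HSP101 and 0.468 to 0.995 for the others.

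The difference between backgrounds was called for 23 of the genes tested (0.141%), of which 12 were among the higher and 4 among the lower genes of pgr5 against wild type. The heat shock genes AT2G29500, AT1G07400, AT1G54050, HSP90.1 and FES1A rose by more in the sapx tapx background. HSP90.1, for one, stood at 19.7, 14.3 and 17.2 CPM in sapx tapx and 793, 617 and 824 CPM in the triple mutant, a log2 fold change of 5.44 ± 0.30 beside 3.18 ± 0.28 in the wild-type background (interaction 2.26 ± 0.37, edgeR adjusted p = 0.0462). The interaction call of HSP90.1 was lost in 10 of the 12 fits that left out 1 library, up to an edgeR adjusted p of 0.165 without sapx tapx replicate 3. SAT32 and SEC10, which fell in pgr5, did not pass the test in the other background, at 0.32 ± 0.11 and -0.27 ± 0.10 (edgeR adjusted p = 0.108 and 0.127), and both differences between backgrounds did (interaction edgeR adjusted p = 0.00032 and 0.0049). SAT32 stood at 134, 152 and 153 CPM in sapx tapx and 169.9, 212 and 166 CPM in the triple mutant, and SEC10 at 51.8, 53.2 and 54.2 and 47.8, 38.0 and 46.6 CPM.

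**Figure D5:**
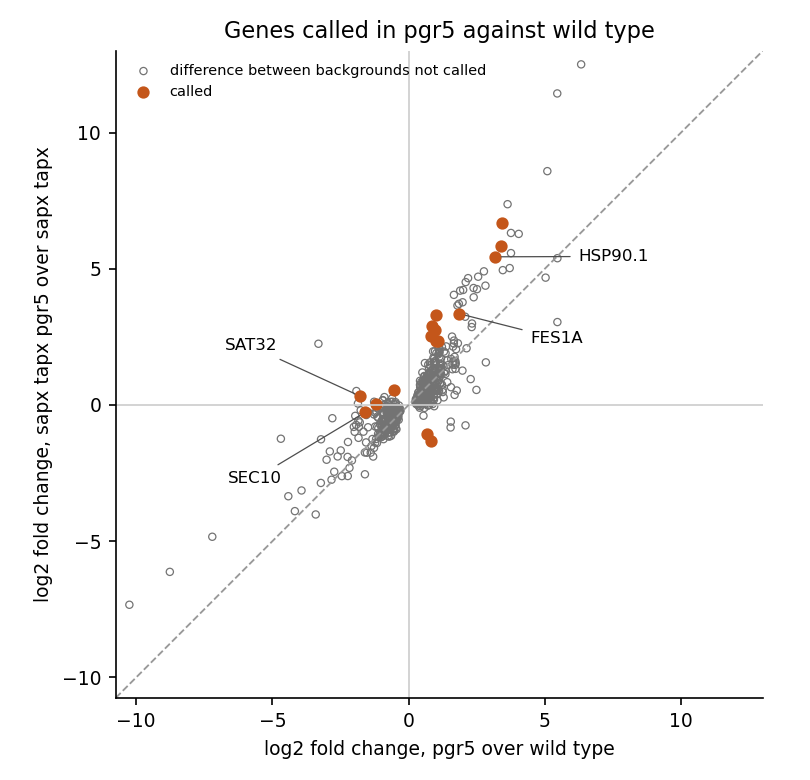
Log2 fold change of pgr5 over wild type (horizontal axis) and of the triple mutant over sapx tapx (vertical axis) for the 638 genes called in pgr5 against wild type, 1 point a gene, with the 16 genes whose difference between backgrounds was called as filled points and the diagonal dashed. Most points lie in the lower left and upper right, where both differences have the same sign.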

How the data were processed

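RNA of 12 leaf libraries, 3 per genotype, was sequenced after a TruSeq RNA v2 preparation, per the labels' protocols, which does not mark strand. The authors deposited 1 table per library with raw read counts per gene (total exon, unique exon, gene, exon-exon and intron reads) and RPKM, per the file headers, on build TAIR10, per the submitters' processing notes. Which aligner, counting tool and annotation were used is not given in the sources used here. Nuclear coordinates were read on RefSeq TAIR10.1. Its gene ends equal those deposited in 6035 of 28009 matched genes, over all 5 chromosomes, and differ in the rest.

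Total exon read counts were fitted with edgeR 4.0.16 in R 4.3.3 (TMM, filterByExpr, 1 quasi-likelihood fit of all 12 libraries, contrast pgr5 minus wild type, Benjamini-Hochberg over 16350 genes). SE is the log2 fold change divided by the root of its test statistic. A gene with 100 reads has a counting error of 10%. A floor of 3 reads is worth 0.453 to 0.542 CPM in these libraries. Intervals and floors cover counting error only. The labels do not say that replicates came from separate plants, so p-values measure the spread between these libraries, which may be technical. Libraries of 1 group differed beyond sampling noise (3.73 to 12.5 chi-square units per degree of freedom). On simulated data for pgr5 against wild type (16207 genes, 200 changed) the fit recovered 72% of 2-fold and 96% of 4-fold changes, with 15 unchanged genes among 183 calls. Changes were placed only in genes above a minimum mean CPM. No simulated library stood apart and none were paired, so the rates do not cover genes of low level or such libraries.

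Deviations of same-numbered wild-type and pgr5 libraries from their group means correlated across genes at r = 0.188, 0.440 and 0.344. Libraries of these groups with different numbers gave -0.332 to 0.152, the highest for wild type 1 with pgr5 3. Same-numbered sapx tapx and triple mutant libraries gave 0.441, 0.612 and 0.372. Across these 2 sets numbers did not go together, with -0.140, -0.530 and -0.018 for wild type with sapx tapx. Numbers were therefore taken to pair libraries within each set, although the labels do not say what a number stands for. The paired fit, with a block for each number within wild type and pgr5 and within the other 2 genotypes, was chosen after the data were seen.

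The 36 gene lists (696 genes), the genes named and the comparison were chosen with earlier results of these data known. By rule the text names up to 4 called members of a list in each direction, the 2 of highest mean CPM where none was called, the 15 largest differences each way at 5 CPM or more with groups that do not overlap, genes without a read in 1 group and 30 or more in the other, and genes picked for their role. Other list members named, and FBA5 and NCED4, were named after their values were seen. Alternatives were other normalization, filters, unique reads, DESeq2 1.42.0, limma 3.58.1 on log2(RPKM + 0.5) of the deposited RPKM, other sets of libraries, replicate blocks, and leaving out each library.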

Additional observations from a re-analysis of the deposited data

Results flagged for a closer look

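In 7 of the genes named, the difference between lines with and without pgr5 differed between the wild-type and the sapx tapx background. The test was the interaction term of the edgeR fit. AT2G29500 had a log2 fold change of 3.42 in the wild-type and 6.67 in the sapx tapx background, which differ by 3.25 ± 0.46 (edgeR adjusted p = 0.0138), and 3 of the 12 fits that left out 1 library lost this call, up to 0.0741 without wild type replicate 1. AT1G07400 had 3.38 and 5.83, which differ by 2.45 ± 0.37 (edgeR adjusted p = 0.0197), and 8 of the 12 fits lost the call, up to 0.103 without wild type replicate 3. HSP90.1 differed by 2.26 ± 0.37 (edgeR adjusted p = 0.0462), and its call is the least stable of these, as given above. AT1G54050 had 0.84 and 2.90, a difference of 2.06 ± 0.25, and FES1A had 1.87 and 3.35, a difference of 1.48 ± 0.18 (edgeR adjusted p = 0.00993 for each). The other 2 genes fell in pgr5 and were not called in the sapx tapx background. SAT32 had -1.77 and 0.32, which differ by 2.09 ± 0.16 (edgeR adjusted p = 0.00032), and SEC10 had -1.59 and -0.27, which differ by 1.32 ± 0.14 (edgeR adjusted p = 0.0049). The calls of AT1G54050, FES1A, SAT32 and SEC10 were kept in all 12 fits, with p of up to 0.031, 0.0435, 0.00343 and 0.0269.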

How the results depend on the processing

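With the fit over 12 libraries giving 638 calls (399 higher, 239 lower), other size factors, filters, unique reads, DESeq2 (693) and limma on RPKM (605) stayed within 1.5 times that count, and no call changed sign in any alternative run. Only the 6 libraries of the comparison gave 337 (226 and 111). With these libraries alone 33 of the genes named lost their calls, and with limma on RPKM 14 did. Leaving out replicate 2 of wild type, sapx tapx and the triple mutant, chosen after the data were seen, gave 1470 (988 and 482). The replicate block over 12 libraries gave 904 calls, the block on the 6 libraries 941, and the paired fit 1882 (1119 and 763). HSFA7A, NPQ1, CBF2, RVE1, PAD4 and AT5G52882 lost their calls under the replicate block over 12 libraries (edgeR adjusted p = 0.0514, 0.0595, 0.0543, 0.0697, 0.0531 and 0.0531), and none of the called genes named did in the paired fit. Leaving out 1 library gave 210 to 660 calls, 146 to 422 higher and 64 to 242 lower. In the sapx tapx background the 1293 calls became 2587 in the paired fit and 746 to 1523 without 1 library. The 23 genes that differed between backgrounds became 50 with the replicate block, 171 in the paired fit, 325 without the 3 libraries numbered 2, 99 with DESeq2 and 10 to 61 without 1 library. Among genes named without a call, the sign of the difference turned in APX1 (-0.0597 to 0.25 on the log2 scale without 1 library), HSFA1D (-0.0542 to 0.24, and -0.0446 without the 3 libraries numbered 2), PGR5 (-0.0301 to 0.0077), LHCA1 (-0.0324 to 0.13, and -0.0208), TCH4 (-0.51 to 3.99) and HSP18.2 (-0.15 to 0.53, and -0.14). Depth limits genes such as APX2 and AT5G37670, which have few reads in wild type. The cause of these shifts was not tested.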
